A study of Mus musculus with 40 samples.

Results

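The Hox fragments described here were open-chromatin DNA fragments that lay in or beside the 4 mouse Hox clusters and had been tested as enhancers in an integrated reporter. A fragment was taken where its centre fell inside the RefSeq body of a Hox gene or within 25000 bp of one, on GRCm38 (mm10). This gave 475 fragment entries of the 458486 in all 40 libraries, where an entry is 1 fragment listed in 1 library. They were 361 different fragments of 354627, and overlapping fragments merged into 58 regions of 75060. The windows covered 667.378 kb and 39 genes.

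All libraries came from HM-1 mouse embryonic stem cells, a line of 129/ola origin with a non-functional Hprt locus. Each cell carried a fragment in front of an HSP68 minimal promoter and a Venus-YFP reporter, inserted at Hprt, which the insertion repaired. The cells were differentiated towards blood and sorted into 5 stages, namely embryonic stem cells (ES), FLK1-positive hemangioblasts (HB), the first hemogenic endothelium (HE1; KIT and TIE2 positive, CD41 negative), the CD41-positive hemogenic endothelium (HE2) and hematopoietic progenitors (HP; KIT and CD41 positive, TIE2 negative). Each stage was split by YFP level into a Negative, a Low, a Medium and a High gate, in 2 replicates. A sort is 1 stage of 1 replicate, so there were 10 sorts. Positive fragments of a sort were the distinct fragments of its Low, Medium and High gates, and negative fragments were those of its Negative gate. The sources used here do not say whether the replicates were separate transfections or separate differentiations, so p-values measure the spread between these sorts. No RNA was measured in these libraries, so the stage names could not be checked against marker genes. Every fragment was read at the same X-linked site in 1 cell line, not in its own cluster.

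Hox genes encode homeodomain transcription factors that give cells their position along the body axis. Their order in a cluster follows the order in which they are switched on and the part of the body in which they act, and genes in the same place of different clusters are paralogues. MEIS and PBX proteins bind DNA together with HOX proteins, CDX proteins and retinoic acid switch Hox genes on, and Polycomb and MLL (Kmt2a) complexes keep them off or on. In blood, HOXA9 and its partner MEIS1 maintain stem and progenitor cells and take part in leukemia, and HOXB4 promotes stem cell expansion.

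The sequences under the leading regions are shown first, because the regions are described by them. For each cluster, the region was taken that held positive fragments in most sorts, and at most 300 bases round its most covered position are given on the plus strand. In Hoxb the leading region lay in an exon of Hoxb8 and is not printed, so the next in order is given. The windows are chr6:52221605-52221904 between Hoxa9 and Hoxa7, chr11:96278897-96279108 beside Hoxb8, chr15:102987396-102987695 beside Hoxc8 and chr2:74672985-74673284 between Hoxd13 and Hoxd12. The last sequence, chr2:74687395-74687475, is the whole of a fragment in the Hoxd10 gene body that was chosen after its values were seen, because it occurred in more libraries than any other Hox fragment. It lay outside curated transcripts, 4456 bp from the curated start site of Hoxd10. Capitals mark matches to the motifs searched, which were a TEAD match (CATTCC, the complement of GGAATG) in the Hoxa sequence, and in the Hoxa, Hoxb and Hoxd sequences a CTCF match with 1 letter off.
Hoxa region near Hoxa9: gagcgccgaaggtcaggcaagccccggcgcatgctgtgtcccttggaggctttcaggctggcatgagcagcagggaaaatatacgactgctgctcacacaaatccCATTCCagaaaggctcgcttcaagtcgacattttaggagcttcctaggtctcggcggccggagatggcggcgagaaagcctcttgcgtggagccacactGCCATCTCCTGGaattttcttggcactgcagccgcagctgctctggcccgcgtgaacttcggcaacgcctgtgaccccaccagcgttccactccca
Hoxb region near Hoxb8: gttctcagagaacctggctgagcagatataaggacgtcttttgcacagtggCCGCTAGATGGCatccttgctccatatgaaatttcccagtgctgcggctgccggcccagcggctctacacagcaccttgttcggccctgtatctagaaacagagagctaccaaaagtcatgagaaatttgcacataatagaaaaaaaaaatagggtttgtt
Hoxc region near Hoxc8: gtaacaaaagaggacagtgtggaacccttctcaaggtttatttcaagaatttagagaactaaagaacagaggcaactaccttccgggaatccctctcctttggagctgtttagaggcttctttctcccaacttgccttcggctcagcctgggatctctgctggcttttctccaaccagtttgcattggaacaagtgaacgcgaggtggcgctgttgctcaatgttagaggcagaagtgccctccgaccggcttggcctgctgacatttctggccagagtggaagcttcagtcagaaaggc
Hoxd region near Hoxd13: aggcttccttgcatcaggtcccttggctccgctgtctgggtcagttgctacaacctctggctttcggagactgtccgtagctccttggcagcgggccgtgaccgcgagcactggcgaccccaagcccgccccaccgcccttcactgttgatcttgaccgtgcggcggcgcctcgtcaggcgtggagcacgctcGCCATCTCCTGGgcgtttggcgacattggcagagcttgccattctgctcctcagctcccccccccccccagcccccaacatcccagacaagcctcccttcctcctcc
Hoxd fragment in Hoxd10: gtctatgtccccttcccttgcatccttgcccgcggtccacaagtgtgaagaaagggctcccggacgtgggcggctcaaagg

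Motifs were searched on both strands in 200 bp of genome round the most covered position of each region, in the 58 Hox regions and in 74985 other regions. This stretch reaches past a region that is shorter, so some matches counted here lie in bases that no listed fragment covers. The Hoxd10 region of 81 bp was counted for TEAD and AP-1 by matches outside its fragment. The homeodomain core TAATTA was in 1 Hox region (1.72%), against 3.40% of the others, and the PBX-HOX motif TGATTNAT was in 0 of 58, against 2.20%. TTTATNG, bound by CDX and posterior HOX proteins, was in 7 Hox regions (12.1%), against 6.85% of the others. Of these 7, 3 lay in Hoxa, 1 in Hoxb, 2 in Hoxc and 1 in Hoxd. TGACAG, the MEIS motif, was in 7 (12.1%; others 16.2%), and GGAATG, the TEAD motif, also in 7 (12.1%; others 13.1%). The blood and endothelial motifs that follow were in 0 to 4 Hox regions each, and in 2.64% to 12.1% of the others. For RUNX factors, TGTGGTT or its variant TGTGGTC was in 4 (6.90%; others 9.24%). For PU.1, GAGGAAGT was in 1 (1.72%; others 2.64%), and for the GATA factors AGATAAG was in 0 of 58 (others 4.30%). For AP-1, TGANTCA was in 3 (5.17%; others 9.92%). ACAANGG (SOX) was in 1 (1.72%; others 12.1%). The retinoic acid response elements DR2 and DR5 were in 0 Hox regions, and in 0.201% and 0.115% of the others. The full CTCF motif was in 0 Hox regions (others 2.67%), and with up to 1 letter off, a looser search added after the sequences were seen, it was in 5 (8.62%; others 8.79%). The other regions were not matched for base composition, with a median GC content of 55.75% in the Hox stretches and 50% in the others. These are descriptions of letters in a window and not of bound sites, and a region without a match can still bind the factor.

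Depth differed between the replicates. Replicate 1 libraries held 4869 to 51146 fragments (median 15805) and 4 to 49 Hox fragments each. Replicate 2 libraries held 654 to 31915 fragments (median 2750) and 0 to 31 Hox fragments, with 2 libraries at 0, ES Low and HP Low, where a count of 0 allows a share of up to 0.170% and 0.135%. Of the 475 Hox entries, 389 were from replicate 1 and 86 from replicate 2. Some libraries of a sort shared their fragments to an unusual degree. In HE1 of replicate 1, the Negative and Medium lists had 28868 fragments in common, 69.8% of the Negative list, and of the 46 Hox fragments in that Negative list 29 were also in Medium. In HP of replicate 1, by contrast, no pair of gates shared any fragment. Each comparison over the sorts was therefore also made without HE1 and without HP of replicate 1, and those values stand beside it.

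The Hoxb cluster held more than any other, with 259 of the 475 entries (54.5%) and 196 different fragments in 23 regions. Hoxa had 68 entries in 14 regions, Hoxc 71 in 13 and Hoxd 77 in 8. Hoxb entries were found in 35 of the 40 libraries, Hoxd entries in 29, and Hoxa and Hoxc entries in 20 each. By replicate, Hoxb had 210 and 49 entries in replicates 1 and 2, Hoxa 59 and 9, Hoxc 67 and 4, and Hoxd 53 and 24. Per kb of window this was 1.30 entries for Hoxb, 0.524 for Hoxd, 0.437 for Hoxa and 0.428 for Hoxc, against 0.168 over the genome. Chromosome 11, on which Hoxb lies, was itself rich in fragments, with 12.2% of all entries on 4.48% of the length of the chromosomes, or 0.458 entries per kb. The share of chromosome 11 was 12.3% to 13.9% in the sorts of replicate 1 and 10.1% to 10.4% in those of replicate 2, so it was high in every sort.

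**Figure D1:**
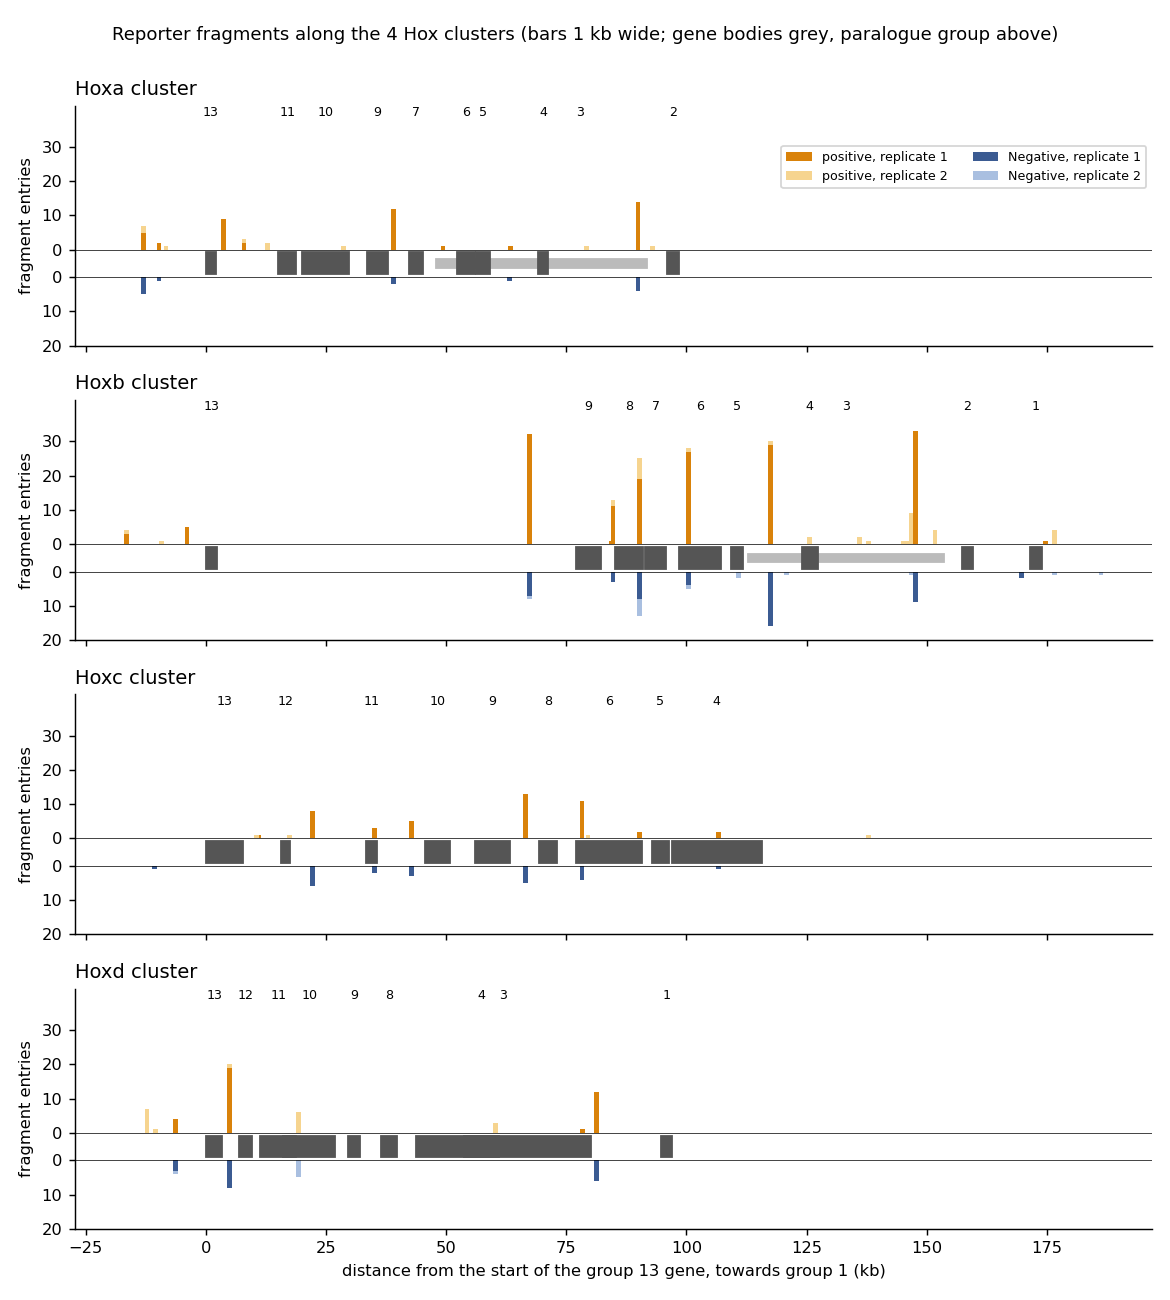
Fragment entries in each of the 58 regions along the 4 clusters, as bars at the centre of the region against distance in kb from the start of the group 13 gene. Positive entries point up and Negative entries down, dark for replicate 1 and light for replicate 2, with gene bodies in grey; most of the tall bars lie in Hoxb around groups 9 to 3, and the light bars often stand at other places than the dark ones.

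Against flanks of 250 kb on either side, the clusters differed. Hoxd had 0.524 entries per kb and its flanks 0.138, Hoxb 1.30 and 0.791, and Hoxa 0.437 and 0.372. Hoxc went the other way, with 0.428 entries per kb in the cluster and 0.790 in its flanks. Over the 4 clusters, the density per kb and per 10000 fragments of a sort was 0.00744 to 0.0204 (median 0.0155) in the Hox windows and 0.00464 to 0.0140 (median 0.0117) in the flanks. The windows were higher in 9 of 10 sorts, by 0.00377 on average (means 0.0148 ± 0.00480 and 0.0111 ± 0.00270, SD, n = 10; two-sided exact sign-flip permutation p = 0.0254). Adjusted over the 10 tests made on Hox fragments, this was p = 0.127 by the exact permutation test and did not pass. The difference rested on Hoxb, and without that cluster it was -0.000390 (exact permutation p = 0.781). Within replicates it was 0.00478 in replicate 1 (exact permutation p = 0.0625, the smallest that 5 sorts allow) and 0.00275 in replicate 2 (exact permutation p = 0.3125). Leaving out HE1 of replicate 1 gave 0.00391 (exact permutation p = 0.0352, unadjusted), and leaving out HP of replicate 1 gave 0.00342 (exact permutation p = 0.0508, unadjusted).

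Within the clusters the fragments were spread unevenly over the genes. Each entry was given to the Hox gene whose RefSeq body was nearest, and some bodies enclose other genes. That of Hoxb3 (chr11:96307101-96347930) encloses Hoxb4, that of Hoxa3 encloses Hoxa4, Hoxa5 and Hoxa6, and that of Hoxd3 encloses Hoxd4. Entries between the enclosed genes went to the wide gene, so these counts and the class totals depend partly on annotation. The region with most entries given to Hoxb3, 46, lay between Hoxb5 and Hoxb4. Hoxb3 had 108 entries, more than any other Hox gene, in 9 regions, of which 81 entries were in positive gates and 27 in Negative gates. Hoxb8 followed with 55, then Hoxb9 with 40. In Hoxd, Hoxd13 had 42, Hoxd3 had 19 and Hoxd10 had 11. The Hoxd13 count includes regions of 7, 1 and 8 entries in or beside Evx2, a gene outside the Hox family. These lay 12267, 10473 and 6291 bp outside Hoxd13, and a region of 28 entries lay between Hoxd13 and Hoxd12. In Hoxa, the leading genes were Hoxa13 with 28, Hoxa3 with 23 and Hoxa9 with 14. The Hoxa13 count includes regions of 1, 3 and 12 entries on the side of the noncoding RNA gene Hottip. These lay 8354, 9814 and 12959 bp outside Hoxa13, and regions of 9 and 3 entries lay on its other side. In Hoxc they were Hoxc6 with 18, Hoxc8 with 16 and Hoxc12 with 15. Posterior genes such as Hoxa13 and Hoxd13 pattern the limb ends and the hind gut, whereas group 3 genes act in the hindbrain and pharynx. No entry was nearest to Hoxa2, Hoxa4, Hoxa5, Hoxa6 or Hoxa7, and likewise none to Hoxb2, Hoxb7, Hoxc5, Hoxd1, Hoxd8, Hoxd9 or Hoxd11. Hoxb4, the gene used to expand blood stem cells, had 2 entries, both positive and from HE1 of replicate 2. By place in the cluster, groups 1 to 4 (anterior) had 168 entries, groups 5 to 9 (central) 180 and groups 10 to 13 (posterior) 127. Positive entries made up 74.4%, 76.7% and 72.4% of these. The clusters differed in which class led. In Hoxd 55 entries were posterior and 0 central, and in Hoxb 130 were central and 119 anterior. The posterior counts include the entries in or beside Evx2 and those on the side of Hottip, so they depend partly on the window.

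**Figure D2:**
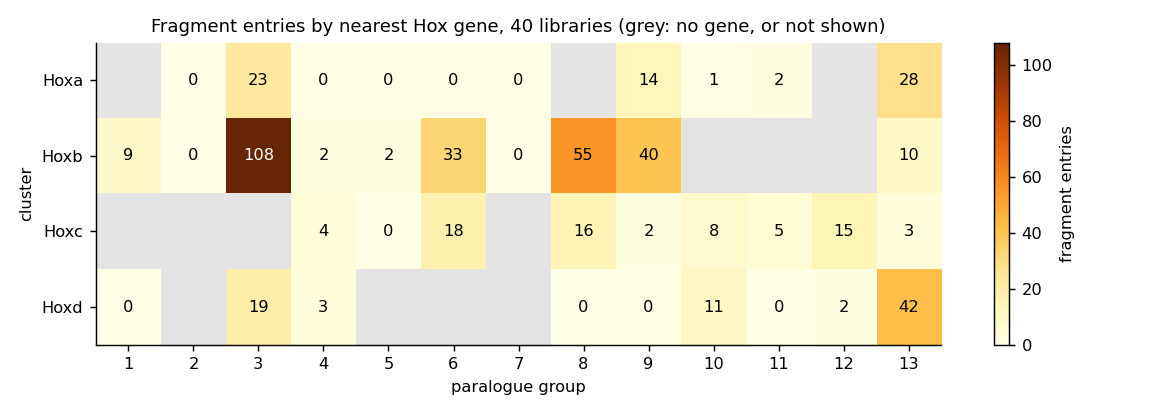
Number of fragment entries nearest to each Hox gene over the 40 libraries, by cluster (rows) and paralogue group (columns). Hoxb3 (108) and Hoxb8 (55) hold the highest counts, and the genes of groups 4 to 7 in Hoxa hold 0. The body of Hoxb3 encloses Hoxb4 and that of Hoxa3 encloses Hoxa4, Hoxa5 and Hoxa6, so entries between these count for group 3. The counts of Hoxa13 and Hoxd13 include entries outside the clusters, on the side of Hottip and of Evx2.

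Hox fragments lay close to transcription start sites but outside the promoters. Both follow in part from selection, because fragments were taken in or within 25000 bp of closely spaced genes and the authors kept distal ones. No other set of closely spaced genes was compared, so the distances and the exon share are descriptions only. None was within 1500 bp of a curated start site, the limit below which the authors set fragments apart as promoters, and the nearest was at 1501 bp. Of the 475 entries, 408 (85.9%) lay 1501 to 5000 bp from a start site, against 15.8% of all other fragments, and the median distances were 3233 and 18093 bp. Exons of curated transcripts held 20.2% of Hox entries, against 6.77% of the others, introns held 30.3% (others 44.2%) and 49.5% lay between genes (others 49.0%). Hoxd had the highest share in exons (37.7%), and Hoxb the highest in introns (44.0%). Most of the Hoxd exon entries were not in Hox genes, with 18 in a region in an exon of Haglr and 7 in Evx2. Of 5 microRNA hairpins in the windows, Mir10a, Mir10b, Mir196a-1, Mir196a-2 and Mir196b, none overlapped a region.

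Hox fragments were richer in G and C than the rest of the same sort. Their mean GC content in the 10 sorts was 52.4% to 59.9% (median 58.0%), and that of all other fragments 49.0% to 57.0% (median 52.8%). It was higher in Hox fragments in 10 of 10 sorts, by 4.36 percentage points (57.4 ± 2.02% and 53.0 ± 3.22%, SD, n = 10; two-sided exact sign-flip permutation p = 0.00195, the smallest that 10 sorts allow). After adjustment over the 10 tests this was p = 0.0195 by the exact permutation test. Identical fragments recurred between sorts of a replicate, which this test does not take into account. The difference was 2.43 points in replicate 1 and 6.30 in replicate 2, each higher in 5 of 5 sorts (exact permutation p = 0.0625 each, the smallest possible), and other fragments had a lower GC content in replicate 2. Without HE1 of replicate 1 it was 4.45 points and without HP of replicate 1 it was 4.61 (exact permutation p = 0.00391 each). CpG pairs were also frequent. Of the 58 Hox regions, 19 (32.8%) had over 0.6 of the CpG pairs that their base composition predicts in 200 bp, against 4.91% of 74985 other regions. These 200 bp were the stretches of genome searched for motifs, which reach past short regions. Hox fragments had a mean length of 214 ± 49.9 bp and the others of 208 ± 41.0 bp (SD, n = 10 sorts; exact sign-flip permutation p = 0.375). The difference in length was 6.46 bp, 6.43 bp without HE1 of replicate 1 and 6.11 bp without HP of replicate 1, and between 2.06 bp without HE2 of replicate 2 and 10.4 bp without HP of replicate 2.

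**Figure D3:**
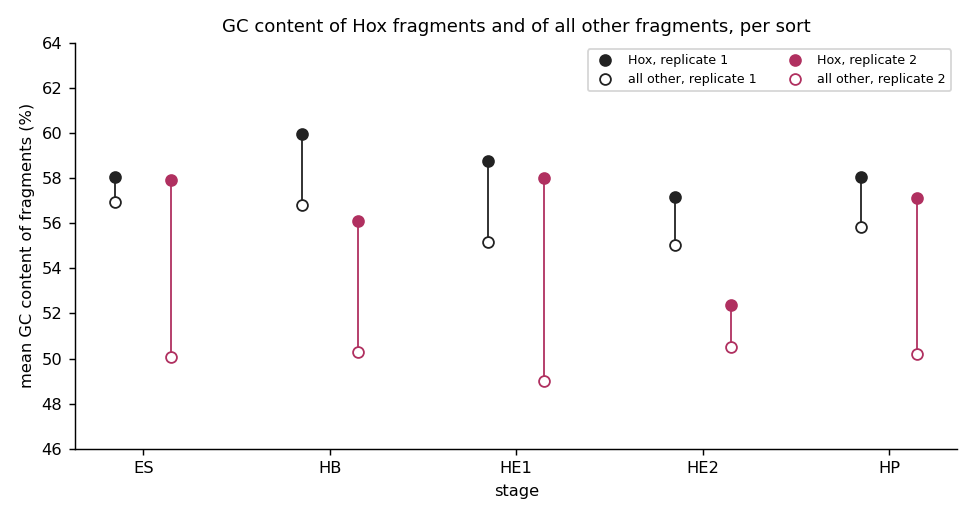
Mean GC content (%) of the Hox fragments (filled points) and of all other fragments (open points) in each of the 10 sorts, joined by a line, in black for replicate 1 and red for replicate 2. The filled point is above the open point in every sort, by 4.36 points on average, and the open points of replicate 2 lie between 49.0% and 50.5%. The vertical axis does not start at 0.

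The central question of the screen was whether a fragment drives the reporter, and the clusters were first counted by that measure. Summed over the sorts, there were 344 positive and 120 negative Hox fragments, so 74.1% were positive, against 341428 and 103361 (76.8%) over the genome. Hoxa had 55 positive and 13 negative (80.9%), Hoxb 192 and 62 (75.6%), Hoxc 49 and 22 (69.0%), and Hoxd 48 and 23 (67.6%). A fragment found in a positive gate and in the Negative gate of the same sort was counted in both, which was so for 42 Hox fragments, 30 of them in HE1 of replicate 1. In replicate 2, Hoxa had 9 positive and 0 negative fragments and Hoxc 4 and 0, where counts of 0 in the 5 Negative gates allow shares of up to 0.0201% to 0.110% each.

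As a share of all positive fragments of a sort, Hox fragments ran from 0.0384% (HP, replicate 2) to 0.144% (HE2, replicate 2), with a median of 0.102%. As a share of the negative fragments they ran from 0.0355% (ES, replicate 2) to 0.190% (HB, replicate 1), with a median of 0.136%, so the ranges overlapped widely. The means were 0.0979 ± 0.0356% and 0.117 ± 0.0482% (SD, n = 10), and the positive share was the lower in 8 of 10 sorts. The difference of -0.0188 percentage points did not exceed the spread among sorts (exact permutation within stages, two-sided p = 0.366, adjusted over the 4 clusters and their sum p = 0.492). In replicate 1 the positive share was lower in 5 of 5 sorts, with differences from -0.00780 to -0.0718 points and a mean of -0.0344 (exact permutation p = 0.0625, the smallest possible). In replicate 2 it was lower in 3 of 5, with a mean difference of -0.00326 (exact permutation p = 0.875). Leaving out HE1 of replicate 1 gave -0.0197 (exact permutation p = 0.360), and leaving out HP of replicate 1 gave -0.0185 (exact permutation p = 0.319). The sorts of HE2 moved it further, to -0.00674 without that of replicate 1 (exact permutation p = 0.791) and to -0.0309 without that of replicate 2 (exact permutation p = 0.157). Without the fragments counted as both positive and negative it was -0.00499 (exact permutation p = 0.831), and with Medium and High alone as positive it was -0.000760 (exact permutation p = 0.981). With gene bodies alone as windows it was larger, at -0.0272, and the positive share was lower in 9 of 10 sorts (exact permutation p = 0.0327, adjusted p = 0.163). With windows of 10 kb it was -0.0193 (exact permutation p = 0.326).

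**Figure D4:**
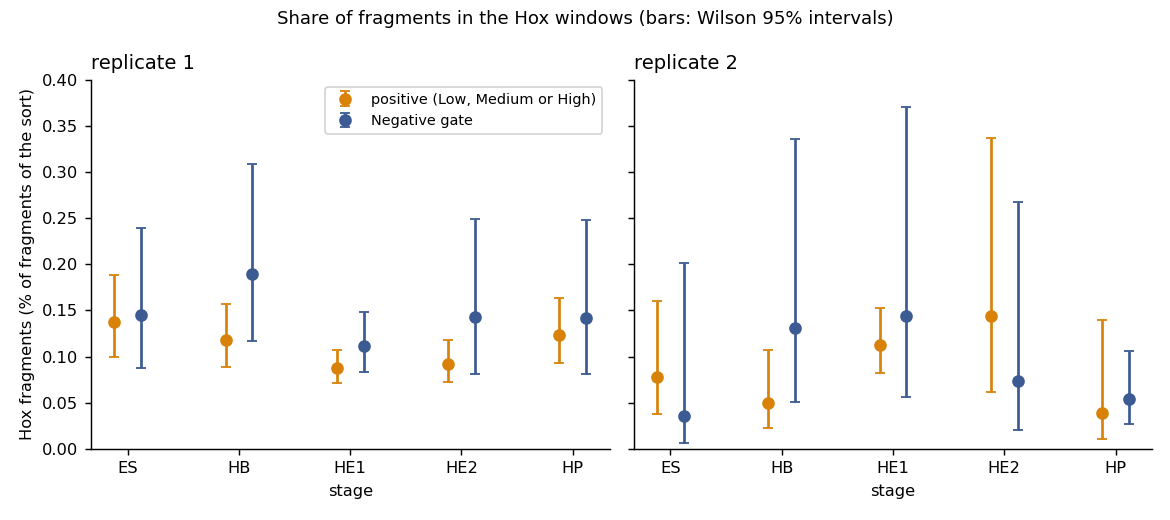
Hox fragments as a percentage of the positive (orange) and negative (blue) fragments of each sort, by stage, for replicate 1 (left) and replicate 2 (right), with Wilson 95% intervals for counting error. The positive and negative points of a sort have overlapping intervals in every sort, and all 5 orange points of replicate 1 lie below the blue ones.

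By cluster, none of the differences passed after adjustment over the 5 tests. The positive share of Hoxd was lower than its negative share in 8 of 10 sorts, at 0.0142 ± 0.00900% and 0.0243 ± 0.0124% (SD, n = 10; exact permutation p = 0.0419, adjusted p = 0.210). In replicate 2 it was lower in 5 of 5 sorts, by a difference of -0.0155 (exact permutation p = 0.0625), and in replicate 1 in 3 of 5, at -0.00469 (exact permutation p = 0.500). Of the 6 negative Hoxd fragments of replicate 2, 5 were the same fragment of 81 bp, once at each stage. Without fragments counted as both positive and negative the Hoxd difference was -0.00624 (exact permutation p = 0.363), and without ES of replicate 2 it was -0.00621 (exact permutation p = 0.224). Without HE1 of replicate 1 it was -0.00931 (exact permutation p = 0.0556, adjusted p = 0.278), and without HP of replicate 1 it was -0.0120 (exact permutation p = 0.0239, adjusted p = 0.120). Without ES of replicate 1 it was -0.0140 (exact permutation p = 0.0100, adjusted p = 0.0502). With windows of 10 kb it was -0.0126 (exact permutation p = 0.0147, adjusted p = 0.0733), and with gene bodies alone -0.00966 (exact permutation p = 0.204). For Hoxa the order was turned, at 0.0178 ± 0.0160% positive and 0.00953 ± 0.0110% negative, and the positive share was higher in 4 sorts and lower in 4 (exact permutation p = 0.196, adjusted p = 0.491, n = 10). Hoxb had 0.0534 ± 0.0196% positive and 0.0639 ± 0.0362% negative (exact permutation p = 0.471, adjusted p = 0.492, n = 10). Hoxc had 0.0125 ± 0.00945% positive and 0.0190 ± 0.0250% negative (exact permutation p = 0.492, adjusted p = 0.492, n = 10). Without HE1 of replicate 1 the differences were 0.0101 in Hoxa, -0.0149 in Hoxb and -0.00560 in Hoxc, and without HP of replicate 1 they were 0.0106, -0.0118 and -0.00523. Other sorts moved them further. Leaving out 1 sort gave 0.00207 to 0.0145 for Hoxa, in both cases a sort of HE2, -0.0190 to -0.00207 for Hoxb, in both cases a sort of ES, and -0.0130 to -5.51e-05 for Hoxc, in both cases a sort of HB.

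The positive share of the Hox clusters was also compared across the stages. It was 0.107 ± 0.0421% in ES, 0.0836 ± 0.0488% in HB, 0.0997 ± 0.0175% in HE1, 0.118 ± 0.0368% in HE2 and 0.0810 ± 0.0602% in HP (SD, n = 2 sorts each). No difference beyond the spread between the replicates was found (exact permutation over 945 arrangements, p = 0.876). Without HE1 or HP of replicate 1 the results were p = 0.901 and p = 0.540 by exact permutation over 22680 arrangements each. In counts, ES had 45 positive and 16 negative Hox fragments, HB 52 and 20, HE1 128 and 50, HE2 68 and 14, and HP 51 and 20. Hoxa, the cluster of Hoxa9, had 3 positive fragments in ES, 8 in HB, 20 in HE1, 15 in HE2 and 9 in HP, and Hoxb had 29, 28, 72, 37 and 26 in the same order. The sorts of HE1 were also the deepest of each replicate, with 113821 and 36035 distinct fragments.

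The YFP level did not order the Hox shares in the same way in both replicates. Over the 10 sorts the Hox share was 0.117 ± 0.0482% in the Negative gate, 0.0915 ± 0.0602% in Low, 0.102 ± 0.0523% in Medium and 0.142 ± 0.153% in High (SD, n = 10). High exceeded Low by 0.0503 points on average, but in 4 of 10 sorts only (exact permutation p = 0.468). In replicate 1 High was lower than Low in 5 of 5 sorts, by 0.0273 points on average (exact permutation p = 0.0625, the smallest possible), and in replicate 2 it was higher in 4 of 5, by 0.128 (exact permutation p = 0.125). The size of the mean difference depended on HE1. HE1 High of replicate 2 held 8 Hox fragments among 1413, or 0.566% (Wilson 95% interval 0.287% to 1.11%), 5 of them in Hoxd and 3 in Hoxb. Of these 5, 3 overlapped in 1 region in an exon of Evx2, a gene outside the Hox family, 12267 bp from Hoxd13. Without HE1 of replicate 2 the difference was 0.00212 (exact permutation p = 0.938). Without HE1 of replicate 1 it was 0.0984 (exact permutation p = 0.430), and without HP of replicate 1 it was 0.0585 (exact permutation p = 0.337). With windows of 10 kb, which leave out the Evx2 region among others, it was 0.0118 (exact permutation p = 0.789).

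Regions gave a finer view. Of the 58 Hox regions, 30 held positive fragments only (51.7%), 6 negative only (10.3%) and 22 both (37.9%), against 54.3%, 16.0% and 29.7% of all 75060 regions. Positive fragments came from both replicates in 8 regions, 5 in Hoxb, 2 in Hoxa and 1 in Hoxd, or 13.8% against 6.84% of all regions. In replicate 1 alone 22 regions were positive and in replicate 2 alone also 22, which is 37.9% each, against 33.3% and 43.9% of all regions. Hoxc had 0 regions that were positive in both replicates. Positive fragments were found at all 5 stages in 8 regions (13.8%; all regions 6.21%), 6 of them in Hoxb, and at 1 stage in 28 (48.3%; all regions 51.8%). A region held 1 entry in 23 cases (39.7%), against 55.0% of all regions. The region test compared positive and negative fragments with the 10 sorts as strata, over all 5742 regions with at least 20 entries, of which 12 (0.209%) passed at an adjusted p under 0.05. Of the Hox regions 6 were deep enough to test, 5 in Hoxb and 1 in Hoxd, and 0 passed by this Cochran-Mantel-Haenszel test. At an unadjusted p under 0.05 there was 1 Hox region, among 202 of all regions. That region lay in Hoxb8, where 23 distinct positive fragments stood against 28.3 expected from all fragments of the same sorts. Its unadjusted p by the Cochran-Mantel-Haenszel test was 0.0419 and its adjusted p 1.0, from an approximate and not an exact distribution. Of its negative entries, 7 were from HE1 of replicate 1, whose Negative list was largely shared with Medium. Hox regions at an unadjusted p under 0.05 were 0 with fragments in both a positive and the Negative gate left out. They were also 0 with near-identical fragments collapsed, and 2 without the continuity correction.

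The 3 leading Hoxb regions were chosen as positive in most sorts, 6 or 7 of 10. With 5 sorts in a replicate, positive fragments in both replicates follow from that choice. The region in the exon of Hoxb8, chr11:96284121-96285016, had 25 positive and 13 negative entries and was positive in 7 of 10 sorts. Replicate 1 gave positive entries of 0 in ES, 6 in HB, 5 in HE1, 6 in HE2 and 2 in HP, and replicate 2 gave 1, 2, 3, 0 and 0. Of the 13 negative entries, 9 were from HE1. The region just beside Hoxb8, chr11:96278897-96279170, whose sequence is given above, lay 442 bp outside the gene body and had 13 positive and 3 negative entries in 7 sorts. Replicate 1 gave 3 positive entries in ES, 1 in HB, 2 in HE1, 1 in HE2 and 4 in HP, and replicate 2 gave 1 in HB and 1 in HP. The region chr11:96311218-96312242, inside the gene body of Hoxb3 but outside its curated transcripts, had most entries of all Hox regions, 30 positive and 16 negative. It was listed in ES in 8 positive and 6 negative entries, and of its 30 positive entries 29 were from replicate 1.

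Other Hoxb regions were deep in replicate 1 alone. An intron of Hoxb3 held 33 positive and 9 negative entries at chr11:96341688-96342314, all positive ones from replicate 1. The next region towards Hoxb4, at chr11:96340853-96341256, held 9 positive entries and 1 negative, with all the positive ones from replicate 2. The region upstream of Hoxb9, chr11:96261297-96262026, in an intron of Gm53, had 32 positive and 8 negative entries at all 5 stages, with 0 positive in replicate 2. The region in the Hoxb6 gene body, chr11:96294417-96295131, by curated transcripts in an intron of Hoxb5os, had 28 positive and 5 negative, 27 of the positive from replicate 1.

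In Hoxa, the leading region between Hoxa9 and Hoxa7, chr6:52221556-52222073, lay 1342 bp from the Hoxa9 gene body and had 12 positive and 2 negative entries. Its positive entries were all from replicate 1, with 1 in ES, 5 in HB, 2 in HE1, 1 in HE2 and 3 in HP, so it was positive at all 5 stages. By gate, 6 were in High, 4 in Medium and 2 in Low. The region chr6:52273503-52274195, 12959 bp outside Hoxa13 on the side of the noncoding RNA gene Hottip, had 7 positive and 5 negative entries, and 2 of the positive were from replicate 2. The region in an intron of Hoxa3, chr6:52170586-52171337, had 14 positive and 4 negative entries. Its positive entries were 0 in ES and HB, 5 in HE1, 7 in HE2 and 2 in HP, all from replicate 1. Negative entries in ES and HB were also 0, so no fragment of it was listed at these stages. Its activity there is unknown. Per the methods, fragments were kept only with an ATAC peak at the same stage.

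In Hoxc, the 3 leading regions were seen in replicate 1 only. The region 2993 bp from Hoxc8, chr15:102987327-102987895, had 13 positive and 5 negative entries, with 0 positive in ES, 4 in HB, 5 in HE1, 2 in HE2 and 2 in HP. The region in the Hoxc6 gene body but outside curated transcripts, chr15:102999083-102999730, had 11 and 4, also with 0 in ES. Both of these regions had 0 Negative entries in ES too, so their activity at that stage is unknown. The region between Hoxc12 and Hotair, a noncoding RNA gene, chr15:102942914-102943577, had 8 and 6, with positive entries in ES, HE1, HE2 and HP. In all, replicate 2 gave 4 Hoxc entries among 97305 entries, and replicate 1 gave 67 among 361181.

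In Hoxd, the region between Hoxd13 and Hoxd12, chr2:74672765-74673465, had 20 positive and 8 negative entries and was positive at all 5 stages. Replicate 1 gave 4 positive entries in ES, 3 in HB, 8 in HE1, 2 in HE2 and 2 in HP, and replicate 2 gave 1, in HE1. The region in an exon of the noncoding gene Haglr near Hoxd3, chr2:74749212-74749946, had 12 positive and 6 negative entries. Its positive entries were 4 in HE1, 5 in HE2 and 3 in HP, with 0 in ES and HB. Negative entries in ES and HB were also 0, so its activity at these stages is unknown.

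**Figure D5:**
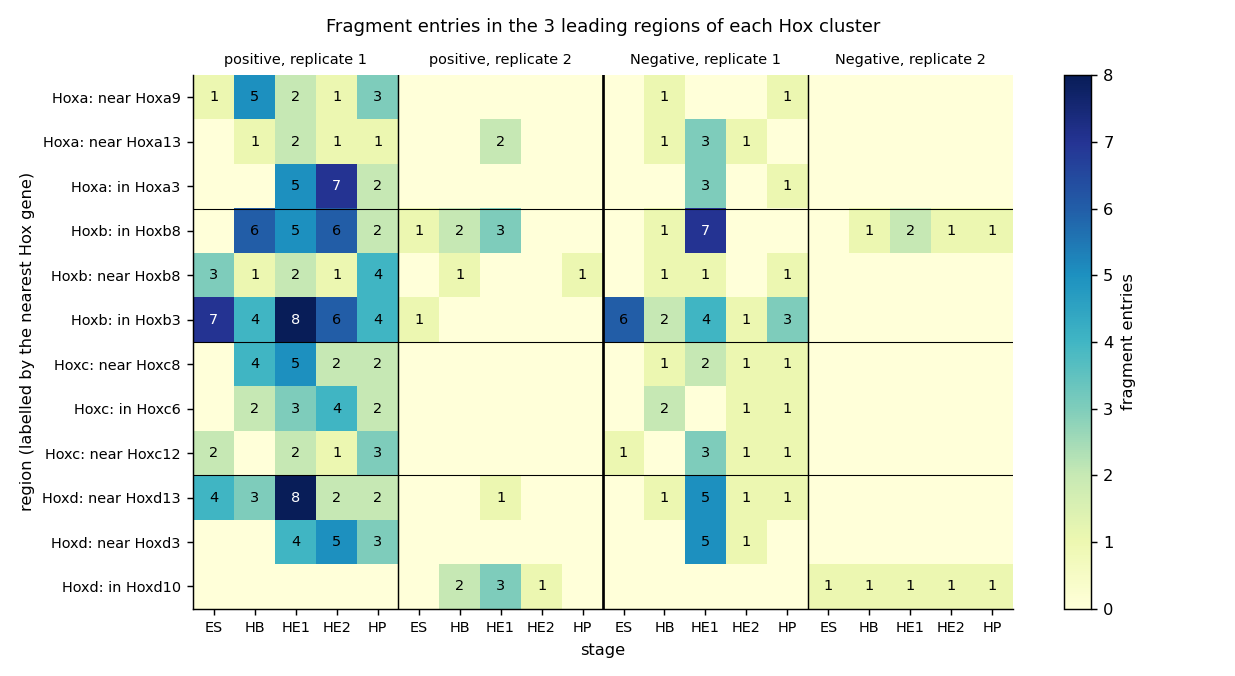
Number of fragment entries in the 3 leading regions of each cluster (rows) in the 10 sorts (columns, by stage), for positive gates on the left and the Negative gate on the right, each by replicate. Most entries are in replicate 1, and the region in the Hoxd10 gene body is filled in replicate 2 alone, with 1 Negative entry at every stage.

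The same fragment was often listed in several libraries. Of the 361 different Hox fragments, 79 (21.9%) were in more than 1 library, against 19.0% over the whole series. Most of them, 62, were in 2 libraries (78.5%; whole series 75.2%). Of the 79, 47 were found at more than 1 stage (59.5%), 48 in both a Negative and a positive library (60.8%) and 5 in both replicates (6.33%). Over the whole series these shares were 54.8%, 63.4% and 5.02% of the fragments in more than 1 library, so the Hox shares were near them. The fragment in the Hoxd10 gene body printed above, 81 bp long, was in 11 libraries, all of replicate 2. It was in the Negative gate at all 5 stages, and in 2 positive gates in HB, 3 in HE1 and 1 in HE2. A fragment of 232 bp at the end of the Hoxb8 region, chr11:96284785-96285016, was in 8 libraries of replicate 2, 4 Negative and 4 positive, at all 5 stages. Another of 226 bp in the Hoxc6 gene body, chr15:102999313-102999538, was in 4 sorts of replicate 1 and positive in all 4.

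The genes whose proteins act with or on Hox genes were counted in the same way. Among cofactors of the MEIS and PBX families, Meis1 had 295 entries (229 positive and 66 negative), Pbx2 had 130, Pbx3 41, Meis2 38, Pbx4 19 and Meis3 5. The 8 regulators held 306 entries, 74.5% positive, at 0.469 per kb, against 0.712 in the Hox windows. Cdx2, which activates Hox genes in the early embryo, had 106 (81 positive and 25 negative), and Cdx1 and Cdx4 had 28 and 12. Among the Polycomb genes, Bmi1 had 73, Suz12 41, Eed 9 and Ezh2 2, and Kmt2a had 35. Meis1 was positive in 9 of 10 sorts and Meis2 in 10 of 10. The windows of these genes differed in length. Per kb, Pbx2 had 2.36 entries, Cdx2 1.88, Meis1 1.56 and Bmi1 1.22, above the 0.712 of the Hox windows. The other genes named here had fewer per kb than the Hox windows.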

How the data were processed

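Fragments of open chromatin had been cloned, integrated at Hprt, amplified from sorted cells by PCR and sequenced as read pairs. Per the submitters' processing notes and the methods, the authors used Trim Galore, Bowtie2, SAMtools, bedtools and HOMER on mm10, versions not given in the sources used here, kept proper pairs of high mapping quality, removed those of a background library and kept open-chromatin and distal ones. The deposited values are coordinates of unique fragments, 1 list per library, with no read counts or scores, so each library lists a fragment 1 time at any read number, and its depth is the length of its list. Without molecular identifiers, PCR copies of 1 molecule with shifted ends can be listed as different fragments. Wilson 95% intervals, and limits of 3 counts where a count was 0, therefore hold counting error alone.

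The Hox genes and the lists of cofactors, regulators and motifs were chosen with earlier results of these data known. Fragments were placed by their centre on GRCm38.p6 with RefSeq annotation, and place and start sites were taken from curated transcripts, with unplaced scaffolds left out of sequence measures. Values of 1 Hox gene of the windows and of 1 cofactor are not reported here. Positive and negative, or High and Low, shares were compared by exchanging labels within stages in all 7776 arrangements, and GC content, length and density by 1024 sign flips over sorts, all two-sided. Stages were compared by the upper tail of the variance between stages over 945 arrangements, or 22680 with 1 sort left out. The p-values were adjusted by the Benjamini-Hochberg method. Regions with at least 20 entries were compared over the genome by the Cochran-Mantel-Haenszel method, continuity-corrected, after a check on simulated data. That check drew fragments independently and required calls only at counts raised above the real ones. It set no requirement at the real depth. Named were, in each cluster, the 3 genes with most entries, every gene with 0, and the 3 regions positive in most sorts; other regions with at least 20 entries, Hoxb4 and recurrent fragments were named after their values were seen. Python 3.11.15, NumPy 2.4.6, SciPy 1.17.1, pandas 2.3.3 and matplotlib 3.10.9 were used. Alternatives were windows of 10 kb and of gene bodies alone, collapsing fragments whose ends differ by at most 5 bp, a limit of 1500 bp from start sites, other definitions of positive, the replicate block, other limits on entries, and leaving out replicates and sorts.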

Additional observations from a re-analysis of the deposited data

Results flagged for a closer look

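Stages whose sorts all moved in opposite directions are listed here, and none of these differences between stages was tested. For Hoxb, the positive share minus the negative share was above 0 in both sorts of HE2 (mean 0.0123 percentage points) and below 0 in both sorts of HB (mean -0.0403), HE1 (mean -0.0233) and HP (mean -0.0144). Hox fragments were longer than the other fragments in both sorts of ES (mean 9.62 bp), HE1 (mean 13.9 bp) and HE2 (mean 30.7 bp) and shorter in both sorts of HB (mean -12.1 bp). Each stage had 2 sorts.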

How the results depend on the processing

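Of 201 alternative values computed for the results on Hox fragments, 185 kept their direction and their side of the threshold, 9 fell short of it and 7 turned direction, judged by the adjusted p for the cluster shares and by the unadjusted p for GC content and density. With gene bodies alone, the Hoxa difference between positive and negative shares was -0.000257 and the High minus Low difference was -0.00685. With Medium or High alone as positive, the Hoxb difference was 0.00308. Without the Hoxb cluster, an alternative chosen after seeing the data, the density difference from the flanks was -0.000390. Leaving out a replicate or a sort gave -0.00220 to 0.0188 for Hoxa, -0.0191 to 0.00607 for Hoxc and -0.0273 to 0.128 for High minus Low, with the change of direction in each case on leaving out a whole replicate. For the 4 clusters together it gave -0.0344 to -0.00326, and for Hoxd -0.0155 to -0.00469. The GC difference stayed between 2.43 and 6.30 points, and the density difference between 0.00275 and 0.00478. The GC difference fell short without replicate 1 or replicate 2, where 5 sorts cannot give an exact permutation p under 0.0625, and the unadjusted p of the density difference, which did not pass after adjustment in the first place, exceeded 0.05 without either replicate or any of ES, HB or HP of replicate 1 and HE1 or HE2 of replicate 2 (exact permutation p = 0.0508 each). The cause of the changes under gene bodies and Medium or High was not tested. The region test called 0 Hox regions in every alternative run.

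The gates of a sort came from the same cells, and the same sort of a stage was higher in both shares in 4 of 5 stages. With the replicate block, exchanging values within sorts, the Hox difference stayed -0.0188 (exact permutation p = 0.227), Hoxd had p = 0.0293 (adjusted 0.146 by the exact permutation test), the High minus Low difference p = 0.406 and the stage comparison p = 0.917, so the block changed no call. Replicate 2, with 86 Hox entries, limits every comparison between replicates, and 52 of 58 Hox regions were too shallow for the region test.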
